A study of Homo sapiens with 4 samples.

Results

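The UGT1A genes encode UDP-glucuronosyltransferases, enzymes that attach glucuronic acid to bilirubin, steroids, plant phenols and drugs so that these can leave the body in bile or urine. The family studied here comprised 9 genes of human chromosome 2, UGT1A1, UGT1A3, UGT1A4, UGT1A5, UGT1A6, UGT1A7, UGT1A8, UGT1A9 and UGT1A10, taken by name. They were set beside 22148 background genes with a Gene Ontology (GO) annotation. The listed members of the family were chosen by the authors' calls of differential expression in these same libraries, so their listing is a description and was not tested. Each gene has its own promoter and its own first exon, and all members then share exons 2 to 5. The first exon encodes the part of the enzyme that binds the substrate, and the shared exons encode the part that binds the sugar donor, UDP-glucuronic acid.

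The 4 groups, each with 1 RNA library, were untreated HepG2 cells (group A), HepG2 cells after treatment (group B), untreated Huh7 cells (group C) and Huh7 cells after treatment (group D). The paper describes both as hepatocellular carcinoma cell lines. The treatment was sonodynamic therapy (SDT), in which low-frequency ultrasound acts on targeted nanobubbles that carry the sensitizer hematoporphyrin monomethyl ether (HMME) and the drug lonidamine (LND). Groups A and C received neither nanobubbles nor ultrasound as far as the labels tell, and so the parts played by ultrasound, HMME and LND cannot be told apart. The deposited tables hold the genes called differentially expressed in B vs. A and in D vs. C, sorted under GO terms and KEGG pathways. A gene is called listed here when its identifier stands under any GO term of a comparison. The tables give neither expression levels nor the direction of change, so nothing below says whether a gene rose or fell, and with 1 library per group no value has a replicate error.

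Of the 9 UGT1A genes, 3 were listed in at least 1 cell line and none in both. In HepG2 cells 1 gene, UGT1A6 (ENSG00000167165), was listed, against 21.6% of all background genes. In Huh7 cells UGT1A1 (ENSG00000241635) and UGT1A4 (ENSG00000244474) were listed, 2 of 9 genes or 22.2%, against 19.7% of the background. These counts are near or below the background shares if all 9 genes were in the background. That is not known for the members listed in neither cell line, so the family's shares are not ranked against the background. For comparison, 10.3% of all background genes were listed in both cell lines and 31% in at least 1. The remaining 6 members (UGT1A3, UGT1A5, UGT1A7, UGT1A8, UGT1A9 and UGT1A10) stood under no GO term and no KEGG pathway of either comparison. The values by which the listed genes passed the authors' threshold, and by which the other genes missed it, are not in the tables used here.

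The identity of a UGT1A transcript rests on its first exon, which the junction with exon 2 makes visible. The last 40 bases of the first exon (lower case) are shown with the first 40 bases of exon 2 (capitals) for the 3 listed genes, for UGT1A5, the gene next to UGT1A4, and for UGT1A8, the outermost gene of the locus. The sequences are the sense strand of the main transcripts in GENCODE release 29, written 5′ to 3′.
UGT1A6: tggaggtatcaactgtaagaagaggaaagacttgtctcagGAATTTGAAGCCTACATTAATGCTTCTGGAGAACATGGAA
UGT1A1: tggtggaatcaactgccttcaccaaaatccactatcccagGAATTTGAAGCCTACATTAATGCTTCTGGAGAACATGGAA
UGT1A4: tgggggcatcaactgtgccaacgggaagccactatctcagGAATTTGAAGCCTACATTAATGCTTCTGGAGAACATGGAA
UGT1A5: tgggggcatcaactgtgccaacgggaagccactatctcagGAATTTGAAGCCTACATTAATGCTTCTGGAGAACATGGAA
UGT1A8: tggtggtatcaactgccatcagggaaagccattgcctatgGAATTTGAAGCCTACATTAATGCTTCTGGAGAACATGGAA

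The capitals are the same in every line. In lower case, UGT1A6 and UGT1A1 differed at 18 of 40 bases, UGT1A6 and UGT1A4 at 13 and UGT1A1 and UGT1A4 at 12. UGT1A4 and UGT1A5 differed at 0 of these 40 bases. UGT1A4 was listed in Huh7 cells and UGT1A5 was not, and whether UGT1A5 was in the background is not known. Over the whole first exon, UGT1A4 and UGT1A5 were 88.8% identical, and UGT1A4 and UGT1A3 were 90.7% identical.

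All 9 main transcripts had 5 exons, with the same exons 2 to 4 (440 bases) and the same start of exon 5. The first exon had between 855 and 1000 bases, and exon 5 between 1038 and 1049 bases. In UGT1A6 the first exon made up 40.3% of the transcript, in UGT1A1 38.0% and in UGT1A4 38.1%. The remainder of each transcript is shared, so a read that lies wholly in exons 2 to 5 does not name the gene it came from.

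First exons fell into 2 groups of close relatives and 2 genes that stood alone. UGT1A7, UGT1A8, UGT1A9 and UGT1A10, known for expression in the gut and, for UGT1A9, in liver and kidney, were 84.2% to 93.8% identical to each other. UGT1A3, UGT1A4 and UGT1A5 were 88.8% to 92.2% identical. UGT1A6, whose enzyme conjugates small phenols, was at most 57.1% identical to any other member. UGT1A1, the enzyme that conjugates bilirubin, was at most 63.8% identical to any other. The listed genes were both of the genes that stood alone and 1 gene of the second group, and no member of the first group was listed. Only 21.6% of all background genes were listed in HepG2 and 19.7% in Huh7 cells. Whether the unlisted members were in the background is not known, so no pattern is read from these few genes.

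The share of each main transcript that is its own was measured as the percentage of its stretches of 75 bases that no transcript of any other gene contains. UGT1A6 had 41.3% of 2405 stretches, the highest share in the family. UGT1A1 followed with 39.0% of 2308 stretches. UGT1A4, at 33.7% of 2314, lay below UGT1A7, UGT1A9 and UGT1A10, which had 37.5%, 36.1% and 35.2% and were not listed. UGT1A3 had the lowest share, 23.0% of 2290 stretches. When only the 9 main transcripts were compared, UGT1A3 had 37.7%, so other annotated transcripts hold some of its stretches. Which transcripts these are was not examined. UGT1A4 and UGT1A5 moved less, from 33.7% to 35.9% and from 32.6% to 34.4%. With stretches of 50 or 100 bases UGT1A6 and UGT1A1 again came first and second. Whether own sequence had a part in which members were listed was not tested.

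**Figure D1:**
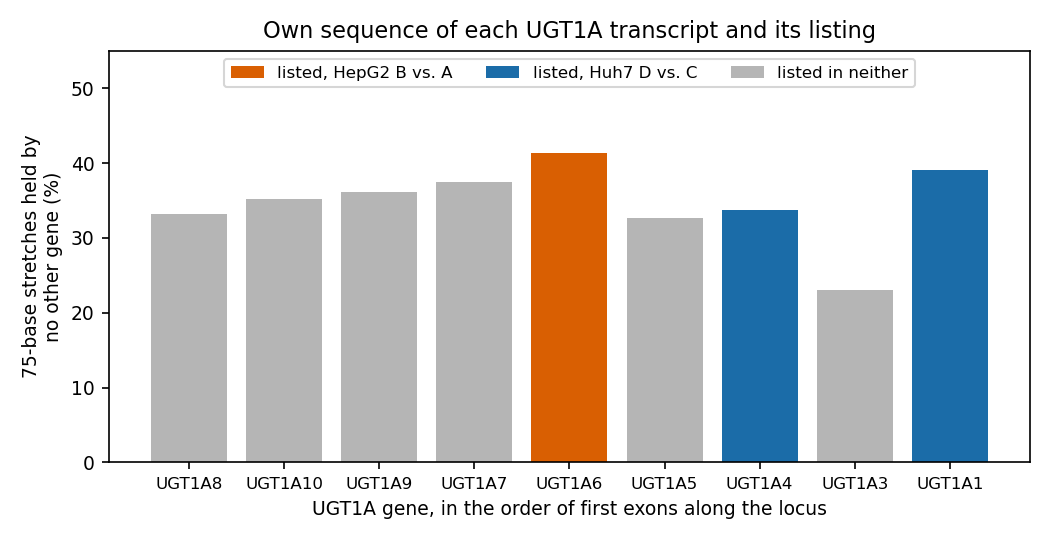
Percentage of 75-base stretches of each main UGT1A transcript (y axis) that no other gene's transcript contains, by gene in the order of first exons along the locus (x axis), with bars coloured by the comparison that listed the gene. UGT1A6 (41.3%) and UGT1A1 (39.0%) were the highest bars and were listed in different cell lines, and UGT1A4 (33.7%) lay within the range of the members that were not listed.

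Along the locus the first exons followed the order UGT1A8, UGT1A10, UGT1A9, UGT1A7, UGT1A6, UGT1A5, UGT1A4, UGT1A3 and UGT1A1. UGT1A6, the gene listed in HepG2 cells, was number 5 in this order, and the genes listed in Huh7 cells were numbers 7 and 9. UGT1A3, number 8, lies between the Huh7 genes and was not listed. Listed members were therefore not next to each other.

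Since each first exon has its own promoter, the promoters of the 3 listed genes are shown, as RefSeq gives them on GRCh38.p14. RefSeq promoters were found for 8 of the 9 members, all but UGT1A10, and UGT1A6 has 2 starts. Each window covers the bases from -250 to -51 before the start on the plus strand. Capitals mark letters that match the core that the aryl hydrocarbon receptor recognises (the xenobiotic response element or XRE core, GCGTG or CACGC) or the core of the antioxidant response element (TGACNNNGC or GCNNNGTCA). The UGT1A1 window held neither. The coordinates belong to this build only, because the build that the authors used is not given in the sources used here.
UGT1A6, first start, chr2:233691452-233691651: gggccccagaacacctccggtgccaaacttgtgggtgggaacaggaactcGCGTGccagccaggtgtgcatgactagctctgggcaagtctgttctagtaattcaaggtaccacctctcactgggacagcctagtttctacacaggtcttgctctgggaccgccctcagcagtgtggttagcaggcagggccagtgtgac
UGT1A6, second start, chr2:233692640-233692839: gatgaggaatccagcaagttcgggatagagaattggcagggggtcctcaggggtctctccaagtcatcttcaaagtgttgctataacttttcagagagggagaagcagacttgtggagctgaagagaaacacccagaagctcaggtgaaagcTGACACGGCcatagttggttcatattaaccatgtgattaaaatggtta
UGT1A4, chr2:233718486-233718685: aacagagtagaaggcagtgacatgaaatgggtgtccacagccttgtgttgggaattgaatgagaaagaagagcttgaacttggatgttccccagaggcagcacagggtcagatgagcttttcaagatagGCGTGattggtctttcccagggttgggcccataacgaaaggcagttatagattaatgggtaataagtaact
UGT1A1, chr2:233760020-233760219: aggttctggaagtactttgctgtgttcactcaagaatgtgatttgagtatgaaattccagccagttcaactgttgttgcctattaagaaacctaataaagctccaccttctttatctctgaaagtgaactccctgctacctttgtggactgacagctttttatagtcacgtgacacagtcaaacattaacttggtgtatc

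The promoters of UGT1A1 and UGT1A4, which were listed together in Huh7 cells, were 49.6% identical over their 300 bases. The promoters of UGT1A4 and UGT1A5 were 89.7% identical, and those of UGT1A4 and UGT1A3 were 88.0% identical. Neither UGT1A5 nor UGT1A3 was listed, and whether they were in the background is not known. Whether promoter sequence had a part in the listing was not tested. The XRE core occurred in 6 of the 9 promoters of members, against 36.5% of all 35116 RefSeq promoters. It lay at -121 to -117 in UGT1A4, which held another match at 45 to 49 after the start, and at -200 to -196 before the first start of UGT1A6. The core of the antioxidant response element occurred in 2 of the 9, against 13.3% of all, and both matches belonged to UGT1A5 and the second start of UGT1A6. The promoters of UGT1A3, UGT1A4 and UGT1A5 are near copies of each other (88.0% to 89.7% identical). Those of UGT1A7, UGT1A8 and UGT1A9, which all held the XRE core, were 64.8% to 78.6% identical. In UGT1A7 and UGT1A9 the match began at nearly the same place, -63 and -65. These counts are therefore not all of independent promoters. Such matches are letters in a window and no record of binding.

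The listed genes were then followed through the terms they stood under. UGT1A6 stood under 66 GO terms in HepG2 cells, UGT1A4 under 91 and UGT1A1 under 202 in Huh7 cells. All 66 terms of UGT1A6 were also terms of UGT1A4 and of UGT1A1, and all 91 terms of UGT1A4 were terms of UGT1A1. By annotation, UGT1A6 and UGT1A4 had the same number of molecular functions (13) and of cellular components (23), and they differed in biological processes, with 30 for UGT1A6 and 55 for UGT1A4. UGT1A1 had 144 biological processes, 26 molecular functions and 32 cellular components. The number of terms describes how much has been annotated for each gene, not how much it changed.

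Bilirubin conjugation was 1 of 2 terms whose background genes were all listed UGT1A genes, the other being biphenyl catabolic process. It has 2 background genes, UGT1A1 and UGT1A4, and both were listed in Huh7 cells and neither in HepG2 cells. UGT1A1 is the main enzyme of bilirubin conjugation in the liver. Since both genes belong to the background that the comparisons share, their absence from the HepG2 list means that they were not called there. The same holds for UGT1A6 in Huh7 cells, whereas for the other 6 members the tables do not show whether they were in the background.

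Heme catabolic process, the term one step wider, has 8 background genes. In Huh7 cells 3 of them were listed, HMOX1, UGT1A1 and UGT1A4, and in HepG2 cells only HMOX1 was. HMOX1, heme oxygenase 1, opens the heme ring and so makes biliverdin, from which bilirubin is formed. Heme metabolic process as a whole listed 9 of 35 genes in Huh7 cells (25.7%, against 19.7% of the background). In HepG2 cells it listed 4 of 35 (11.4%, against 21.6%). The sensitizer HMME is itself a porphyrin, and the tables cannot tell apart a response to it from a response to ultrasound or to LND.

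Conjugation of other compounds was represented by a single gene or a pair. Flavonoid glucuronidation has 9 background genes, of which UGT1A6 alone was listed in HepG2 cells and UGT1A1 with UGT1A4 in Huh7 cells. Xenobiotic glucuronidation has 11 background genes and listed the same 1 and 2 members. Flavonoid metabolic process (16 background genes) listed UGT1A6 with MYC and SULT1A3 in HepG2 cells, 3 genes in all, and UGT1A1 and UGT1A4 with POR and SULT1B1 in Huh7 cells, 4 in all. POR is the reductase that feeds electrons to cytochrome P450 enzymes, and SULT1B1 is a sulfotransferase. SULT1A3 has a near-identical copy, so its listing is uncertain.

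UGT1A1 stood in 111 terms without UGT1A4. The smallest of these were biphenyl catabolic process, where it was the 1 background gene, cytochrome complex (1 of 3 genes listed), biphenyl metabolic process (2 of 4, with the steroid reductase SRD5A2) and flavone metabolic process (1 of 6). Biphenyl metabolic process also listed 2 of 4 genes in HepG2 cells, SRD5A2 and STAR, with no UGT1A gene. In estrogen metabolic process 7 of 30 genes were listed in Huh7 cells, UGT1A1 among them, and 2 of 30 in HepG2 cells. In retinoic acid binding the counts were 7 of 19 and 2 of 19. The background shares were 19.7% in Huh7 and 21.6% in HepG2 cells. Both terms were named after their values had been seen, and other terms with UGT1A1 alone went in both directions. Retinoid binding listed 12 of 35 genes in Huh7 and 6 of 35 in HepG2 cells, and organ regeneration 28 and 18 of 86. Negative regulation of steroid metabolic process listed 6 of 28 genes in Huh7 and 9 of 28 in HepG2 cells. Cellular response to ethanol listed 3 of 14 in each.

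The terms for glucuronidation in general brought in the UGT2 genes, a second family of the same enzyme class whose members act largely on steroids and bile acids. Cellular glucuronidation has 21 background genes. In HepG2 cells 3 were listed (14.3%), UGT1A6, UGT2A1 and UGT2B4. In Huh7 cells 9 were listed (42.9%), UGT1A1 and UGT1A4 with 7 UGT2 genes (UGT2A1, UGT2A2, UGT2A3, UGT2B4, UGT2B7, UGT2B15 and UGT2B17). In glucuronosyltransferase activity, with 35 background genes, HepG2 cells listed 7 genes (20%) and Huh7 cells 13 (37.1%), and each list held UGT3A1 and B4GAT1 besides the UGT1A and UGT2 genes. Wider terms evened out: UDP-glycosyltransferase activity listed 40 of 160 genes in both cell lines.

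Across the terms that hold a listed UGT1A gene and have 10 to 500 background genes, 69 in all, more genes were listed in Huh7 cells in 47, more in HepG2 cells in 16, and equal numbers in 6. Over all such terms with at least 10 background genes, the larger ones included, more genes were listed in Huh7 cells in 67 of 192 and in HepG2 cells in 118. Every one of these terms was taken because it holds UGT1A1, which was listed in Huh7 cells alone, so the counts are tilted toward Huh7 cells by construction. Terms also overlap in their genes, and nothing is read from these counts.

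**Figure D2:**
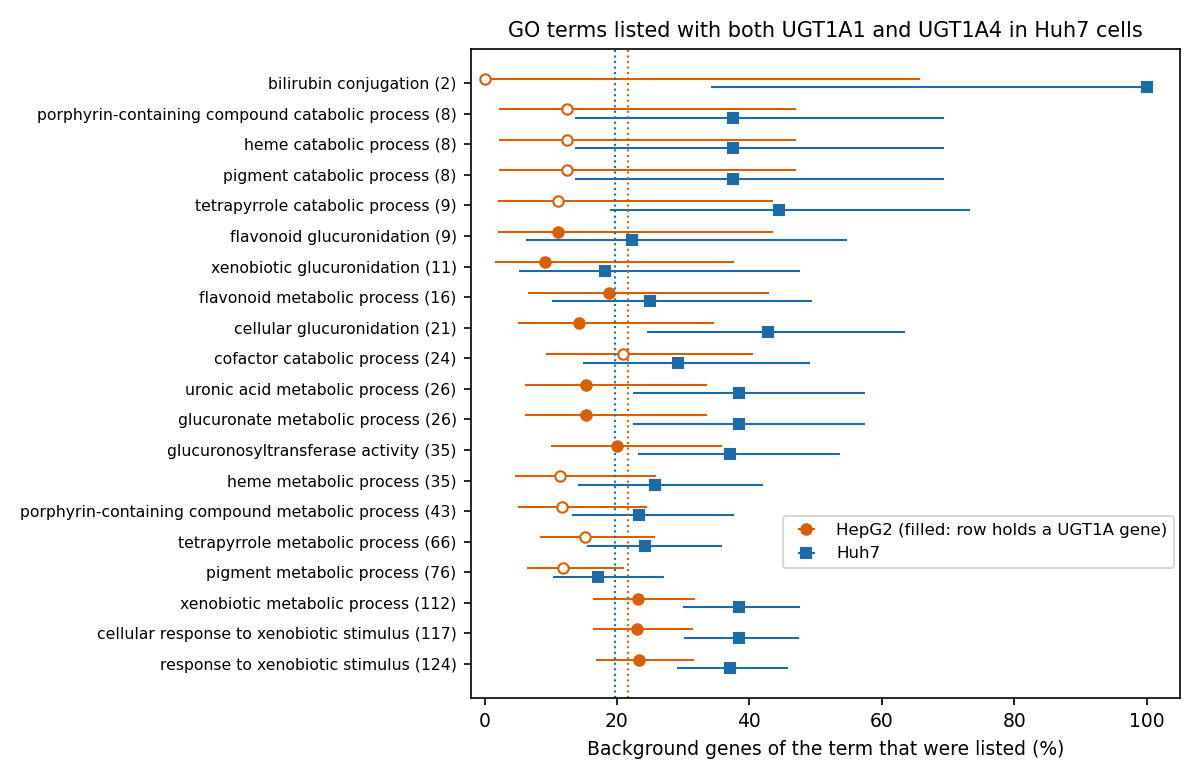
Percentage of the background genes of each GO term that were listed (x axis), for the 20 smallest terms, of at most 124 background genes, under which both UGT1A1 and UGT1A4 were listed in Huh7 cells (y axis, background genes in brackets). Circles are HepG2 cells and squares Huh7 cells, filled where the term listed a UGT1A gene, bars are 95% Wilson intervals for counting error only, and dotted lines are the shares of all background genes (21.6% and 19.7%). The square lies to the right of the circle in all 20 terms, but the terms were picked for 2 genes listed in Huh7 cells alone, which favours that direction by construction, and the intervals overlap in all 20.

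The pathway tables placed the listed genes in 11 KEGG pathways, the same 11 in both cell lines, and 5 of them were followed. In these, UGT1A6 was the 1 UGT1A gene in HepG2 cells, beside UGT2A1 and UGT2B4. In Huh7 cells each of the 5 pathways held UGT1A1 and UGT1A4 beside the same 8 UGT2 genes, UGT2A1, UGT2A2, UGT2A3, UGT2B4, UGT2B7, UGT2B10, UGT2B15 and UGT2B17. Together the 5 pathways held 27 distinct listed genes after treatment of HepG2 cells and 46 after treatment of Huh7 cells, with 16 in common. The same UGT genes recur in every pathway, so the 5 shares below are not independent of each other.

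Ascorbate and aldarate metabolism, where glucuronic acid is broken down or diverted, had 27 background genes. In HepG2 cells 5 were listed (18.5%, 95% Wilson interval 8.18% to 36.7%), UGT1A6, UGT2A1, UGT2B4, the inositol oxygenase MIOX and the aldehyde dehydrogenase ALDH1B1. In Huh7 cells 14 were listed (51.9%, 34.0% to 69.3%), the 10 UGT genes with MIOX, ALDH1B1, ALDH7A1 and the lactonase RGN. UGT genes thus made up 3 of the 5 and 10 of the 14 listed genes. The intervals cover counting error only.

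Pentose and glucuronate interconversions had 36 background genes, of which the HepG2 comparison listed 7 (19.4%) and the Huh7 comparison 14 (38.9%). Apart from UGT genes, 4 were listed in each cell line, and ALDH1B1, DHDH and sorbitol dehydrogenase SORD were common to both. AKR1B10, an aldo-keto reductase, was the fourth in HepG2 cells and KL in Huh7 cells. The difference between the cell lines in this pathway was therefore a difference in UGT genes, 3 against 10.

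Porphyrin and chlorophyll metabolism, the pathway that makes heme and degrades it to bilirubin, had 41 background genes. In HepG2 cells 5 were listed (12.2%, 5.32% to 25.5%), UGT1A6, UGT2A1, UGT2B4, HMOX1 and the copper carrier ceruloplasmin (CP). In Huh7 cells 15 were listed (36.6%, 23.6% to 51.9%). Beyond the 10 UGT genes these were HMOX1, CP, MMAB, UROS, an enzyme of heme synthesis, and ALAS2, the erythroid form of the first enzyme of heme synthesis.

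Drug metabolism by other enzymes listed 9 of 46 background genes (19.6%) in the HepG2 comparison and 19 of 46 (41.3%) in the Huh7 comparison. The genes other than UGT genes numbered 6 and 9, with DPYS, UPP1 and XDH in both. NAT1 and NAT2, the arylamine acetyltransferases, and DPYD, which breaks down pyrimidines and fluorouracil, were listed in Huh7 cells alone, and CYP2A6 in HepG2 cells alone. Steroid hormone biosynthesis listed 14 of 57 (24.6%) and 25 of 57 genes (43.9%). Here genes other than UGT genes were in the majority, 11 of 14 and 15 of 25, and AKR1C4, CYP3A7, SRD5A2 and SRD5A3 were among those in both.

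To see how far the UGT genes carried these shares, all 9 UGT1A and all 10 UGT2 genes were taken out of the listed and the background genes, a choice made after the values had been seen. It assumes that each pathway counts all 19 in its background. Pentose and glucuronate interconversions then listed 4 of 17 genes (23.5%) in both cell lines. Ascorbate and aldarate metabolism listed 2 of 8 (25%) in HepG2 and 4 of 8 (50%) in Huh7 cells. In porphyrin metabolism the counts were 2 and 5 of 22, in drug metabolism 6 and 9 of 27, and in steroid hormone biosynthesis 11 and 15 of 38. Without the 9 UGT1A genes alone, each share in Huh7 cells stayed above that in HepG2 cells. No difference between the cell lines was tested, since the tables hold no value per sample and each group has 1 library.

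**Figure D3:**
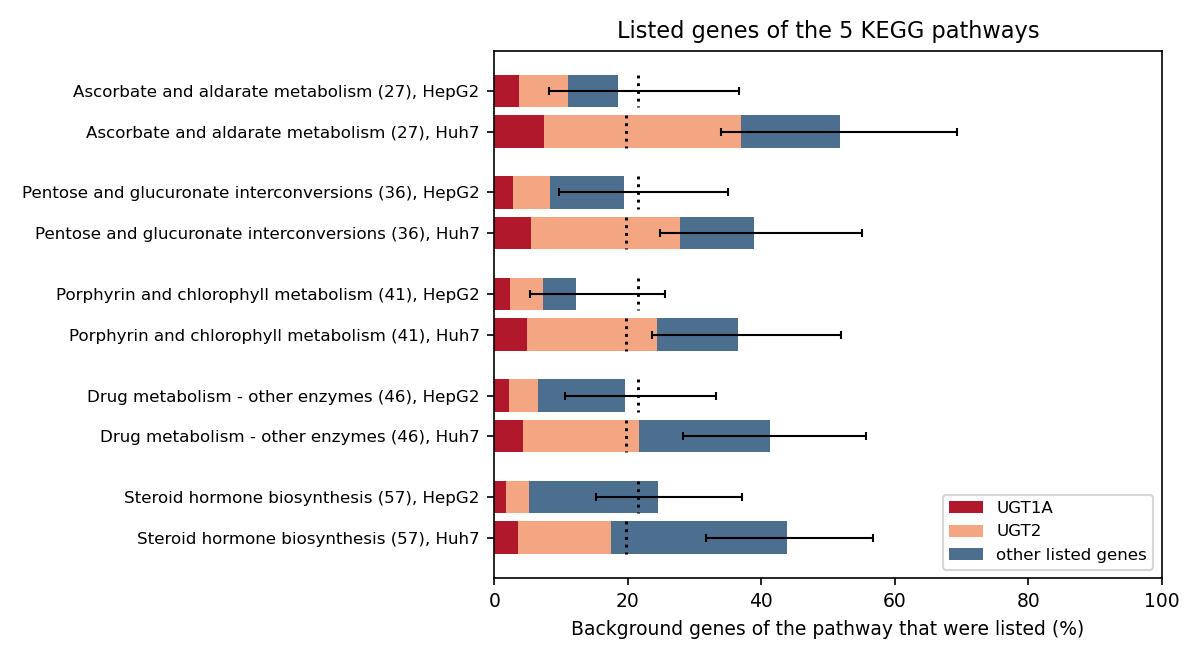
Percentage of the background genes of each of the 5 KEGG pathways that were listed (x axis), by pathway and cell line (y axis, background genes in brackets), split into UGT1A, UGT2 and other listed genes. Bars start at 0, error bars are 95% Wilson intervals for counting error only, and dotted marks are the shares of all background genes (21.6% in HepG2 and 19.7% in Huh7 cells). UGT1A genes took 1 listed gene per pathway in HepG2 and 2 in Huh7 cells, and UGT2 genes took 2 and 8.

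The genes that accompanied the UGT1A genes most often in pathways were the UGT2 genes, in all 11 pathways. Next in HepG2 cells came CYP2A6 in 6 pathways and the alcohol dehydrogenases ADH1A, ADH1B, ADH1C and ADH4 in 5. In Huh7 cells CYP3A5 stood in 6 pathways and ADH1C in 5.

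The family was also set beside lists of related genes. Of 10 UGT2 genes, the HepG2 comparison listed 2 (20%) and the Huh7 comparison 8 (80%), against 21.6% and 19.7% of all background genes. Both HepG2 genes, UGT2A1 and UGT2B4, were among the Huh7 genes. UGT2A1 and UGT2A2 also share exons, and several UGT2B genes are close copies, so their separate listings are uncertain, as is that of UGT1A4 beside UGT1A3 and UGT1A5. Of the 5 genes that make UDP-glucuronic acid or carry nucleotide sugars into the endoplasmic reticulum or Golgi, UGP2 and UGDH, the enzymes that lead to UDP-glucuronic acid, were listed in neither cell line. The carrier SLC35B4 was listed in HepG2 cells and SLC35D1, a carrier for UDP-glucuronic acid, in Huh7 cells. That is 20% of these 5 genes in each, near the background shares.

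Genes before and after conjugation were listed at 0% to 28.6% per list, against 21.6% and 19.7% of the background. From heme to bilirubin, HMOX1 was listed in both cell lines (25% of the list), and HMOX2, BLVRA and BLVRB in neither. Among 9 genes of heme synthesis, none was listed in HepG2 cells, and ALAS2 and UROS in Huh7 cells. Of 7 carriers of bilirubin, glucuronides and related anions, SLCO2B1 was listed in both cell lines and ABCC4 in HepG2 cells. ABCC2, which exports bilirubin glucuronide into bile, and the uptake carriers SLCO1B1 and SLCO1B3 were listed in neither.

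Of 12 factors known to act on UGT1A genes, HepG2 cells listed 3, PPARA, HNF4A and MAF (25%, against 21.6% of the background). Huh7 cells listed 3, NR1I3, HNF4A and FOXA1 (25%, against 19.7%). HNF4A, a master regulator of hepatocyte genes, was common to both. NR1I3, the constitutive androstane receptor, is known to act on UGT1A1 and was listed in Huh7 cells, where UGT1A1 was listed as well. HNF4A was listed in HepG2 cells too, where UGT1A1 was not. The direction of change is not known for any of these genes, and a link between their listings was not tested. The aryl hydrocarbon receptor AHR, the pregnane receptor NR1I2 and the oxidant sensor pair NFE2L2 and KEAP1 were listed in neither.

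Clustered protocadherins offered a comparison of gene structure, since PCDHA and PCDHG genes also join their own first exons to shared exons. Of 15 PCDHA genes, the HepG2 comparison listed 12 and the Huh7 comparison 6, with 4 in both. Of 22 PCDHG genes, 9 were listed in each, with 4 in both. PCDHB genes, which lie between these clusters and share no exons, had 2 of 16 and 6 of 16 listed. The UGT1A locus had 1 and 2 of 9 listed (11.1% and 22.2%), near or below the background shares of 21.6% in HepG2 and 19.7% in Huh7 cells. The tables do not show whether the UGT1A genes listed in neither cell line were in the background. Its shares are therefore not ranked against those of PCDHA or PCDHG. No difference between these clusters was tested.

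**Figure D4:**
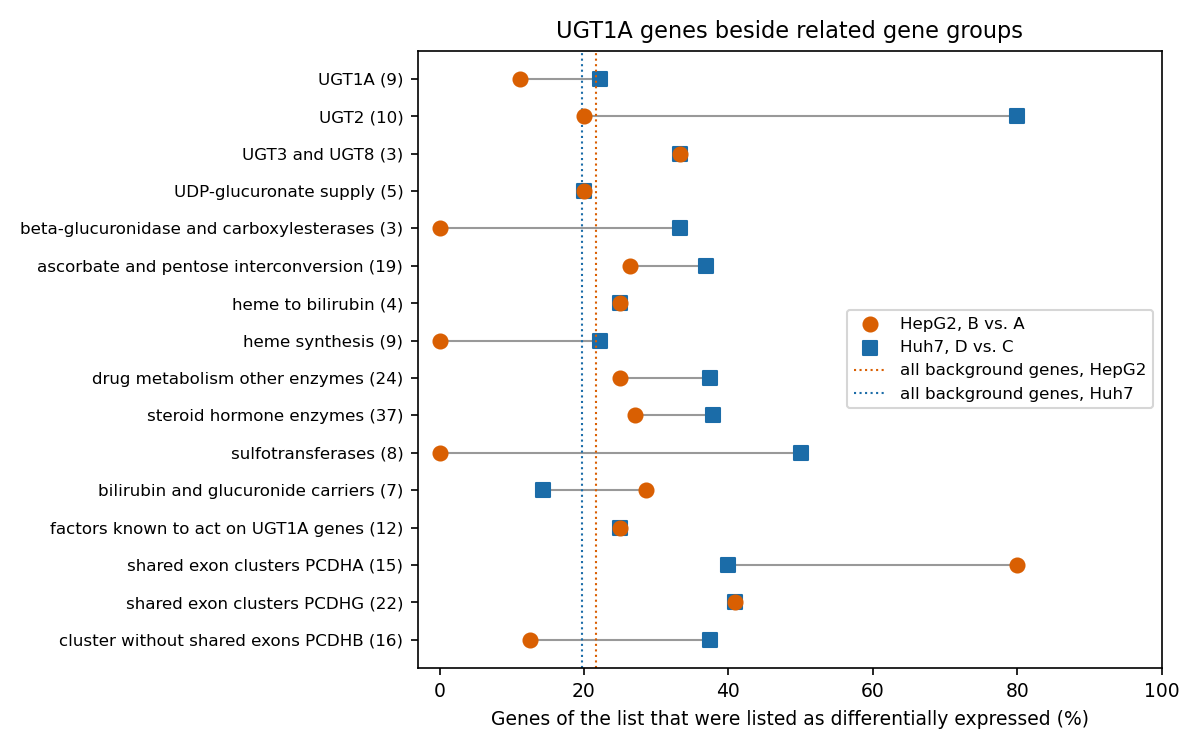
Percentage of the genes of each list that were listed as differentially expressed (x axis), by gene list (y axis, genes in brackets), with circles for HepG2 and squares for Huh7 cells. Dotted lines are the shares of all background genes. UGT1A genes (11.1% and 22.2%, with all 9 counted) lie below and just above the dotted lines. It is not known whether those listed in neither cell line were in the background. UGT2 genes lie at 20% and 80% and PCDHA genes at 80% and 40%. The sulfotransferase list does not hold SULT1A3, which was listed in HepG2 cells.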

How the data were processed

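Total RNA was depleted of ribosomal RNA, and 1 directional library was sequenced for each of 4 groups. The submitters' processing notes name HISAT2, Bowtie2 2.2.8, StringTie 1.3.1 and Cuffdiff 2.1.1. Per the paper's methods, mRNAs were called at an adjusted p-value under 0.05 by Cuffdiff, whereas its results name edgeR. The genome build and annotation are not given in the sources used here. The authors deposited, for each comparison, numbers of listed and background genes per GO term (GOseq) and per KEGG pathway (KOBAS), with gene identifiers. These are numbers of genes and not of reads, and depth was not used here. The p-values and corrected p-values that the authors deposited are their own test results and were not used.

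Each list was rebuilt as the union of identifiers under all GO terms. Symbols came from a table of identifiers and GENCODE 29, where UGT1A3 and UGT1A5 carry other identifiers than in later releases, and both were searched. Wilson intervals at 95% used scipy 1.17.1. First exons and promoters were aligned globally with biopython 1.88. The counting of own stretches was tested on simulated data. Members and gene lists were chosen with earlier results of these data known. All 9 members are named. For the gene lists, counts and the listed genes are given, and the 12 smallest GO terms per comparison were considered for naming. Further GO terms, such as estrogen metabolic process, retinoic acid binding and heme metabolic process, and genes that were not listed were named after their values had been seen. Some genes that the rule or lists would name are not reported here.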

Additional observations from a re-analysis of the deposited data

How the results depend on the processing

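No paired analysis was possible because the tables hold no value per sample, so the before and after libraries of each cell line could not be paired in a fit. The numbers of UGT1A genes listed were 1 in HepG2 and 2 in Huh7 cells. They were the same when read from KEGG pathways, from each GO ontology alone or from terms of at most 500 background genes. All these readings use the same calls, and each listed gene stands under the broadest term of every ontology. Agreement across the ontologies was therefore fixed in advance and says nothing about how stable the calls are. Of 60 alternatives, 10 of them these counts, 53 stayed within the counting interval or the count. The other 7 were pathway shares. Without the listed UGT1A and UGT2 genes, which lowers a share by construction, porphyrin metabolism was at 5.26% in HepG2 and 16.1% in Huh7 cells, and in Huh7 cells ascorbate metabolism was at 23.5%, pentose interconversions at 15.4% and drug metabolism at 25%. Without all 9 UGT1A and 10 UGT2 genes, added after seeing the data, pentose interconversions was at 23.5% and porphyrin metabolism at 22.7% in Huh7 cells. The share in HepG2 cells lay below that in Huh7 cells in 24 of 25 settings. The exception was pentose interconversions without these 19 genes, where the shares were equal. The settings are not independent, since they are variants of the same pathways, and the same UGT genes recur in every pathway. The tables do not show whether a gene that was not listed was expressed.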

Other observations

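Sulfotransferases conjugate many of the same phenols and steroids as the UGT1A enzymes. Of the 8 on the list, SULT1A2, SULT1B1, SULT1E1, which acts on estrogens, and SULT2A1, which acts on bile acids and steroids, were listed in Huh7 cells and 0 in HepG2 cells. The list does not hold SULT1A3, which was listed in HepG2 cells. The shares of the list were 50% in Huh7 and 0% in HepG2 cells, against 19.7% and 21.6% of all background genes. No test bears on this difference. UGT3A1, which uses other sugar donors than UDP-glucuronic acid, was listed in both cell lines, and UGT3A2 and UGT8 in neither. Of GUSB, the lysosomal enzyme that removes glucuronic acid, and the carboxylesterases CES1 and CES2, CES1 was listed in Huh7 cells and none in HepG2 cells.

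The 10 protein-coding genes that flank the UGT1A locus most closely were taken, 5 on each side in GENCODE 29. Of these, 2 were listed in HepG2 cells, HJURP and TRPM8, and 2 in Huh7 cells, SAG and INPP5D. These counts are near the shares of all background genes, 21.6% in HepG2 and 19.7% in Huh7 cells. HJURP loads the centromeric histone and TRPM8 is the cold-sensing channel. The nearest genes on either side were USP40, listed in neither cell line, and MROH2A, also listed in neither.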
